A study of Mus musculus with 12 samples.

Results

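The genes described here were 9 members of the fibroblast growth factor (FGF) system among the 36131 genes counted in the mouse retina: the ligands Fgf1, Fgf2 and Fgf9, the intracellular FGFs Fgf12, Fgf13 and Fgf14, and the receptors Fgfr1, Fgfr2 and Fgfr3. They were taken by name from the count table, and Fgf2 was chosen by its p-value, the smallest of the comparison of oxygen-exposed with room air retinas, so the values of that comparison are given as a description. All 9 passed the filter on low counts. RNA sequencing (RNA-seq) was done on retinas of 12 wildtype C57BL/6J mice at postnatal day 18 (P18), 1 library for each animal. The RA-PBS group (animals 1 to 4) stayed in room air and had phosphate-buffered saline. The O2-PBS group (animals 5 to 8) had 75% oxygen from P7 to P12, a model of oxygen-induced retinopathy, and the same placebo. The O2-IC100 group (animals 9 to 12) had the same oxygen and IC100, a humanized monoclonal antibody against the inflammasome adaptor protein ASC, at 10 µg/g. Per the labels, injections were intraperitoneal on P12, P14 and P16, and elsewhere the study describes the placebo as intravitreal, so that if both are right, antibody and injection route cannot be told apart.

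FGFs bind receptor tyrosine kinases (FGFR1 to FGFR4) together with heparan sulfate chains on the cell surface, and the receptors signal through adaptor proteins to the RAS and MAP kinase cascade, which induces feedback inhibitors such as the Sprouty proteins. FGF1 and FGF2 leave cells without a classical signal peptide, whereas FGF12, FGF13 and FGF14 stay inside neurons, bind voltage-gated sodium channels and do not act as ligands. In the retina FGF2 is known as a survival factor for photoreceptors whose expression rises with many kinds of injury.

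The libraries held 14907143 to 24438082 counts. The 10 rod photoreceptor genes took 4.16 to 5.16% of the counts in 11 animals, as in retinal tissue, but 0.345% in O2-IC100 animal 10. In animal 10, 21 lens genes (crystallins and lens membrane genes) took 60.66% (Wilson score 95% interval 60.64 to 60.68%, counting error only). Lens genes took 1.29, 4.67 and 1.47% in RA-PBS animals 2, 3 and 4 and at most 0.017% in the other 8 animals. Animal 10 was therefore left out of the tests, and values with all 12 animals, where given, are named as such. Levels are CPM (library-size-scaled counts) normalised by the trimmed mean of M values, ± SD. A gene was called higher or lower where the groups differed 1.5-fold or more with p below 0.05 and an adjusted p below 0.1 in edgeR's quasi-likelihood test over 16688 genes. Fewer cells of a type and less RNA per cell cannot be told apart in whole retina.

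Fgf2, which encodes basic FGF, was the member chosen for its difference between O2-PBS and RA-PBS. Its level in the RA-PBS animals was 18.1, 17.3, 28.6 and 16.01 normalised CPM. In the O2-PBS animals it was 121.3, 98.2, 113.0 and 82.7 normalised CPM. In O2-IC100 animals 9, 11 and 12 it was 46.7, 52.9 and 51.1, and in the lens-rich animal 10 it was 57.7 normalised CPM. The 3 groups did not overlap, with O2-PBS highest, O2-IC100 between and RA-PBS lowest, also with animal 10. The level of animal 10 depends on its normalisation factor of 0.3244, against 1.069 to 1.149 in the 11 animals tested. Group means were 20.01 ± 5.82 (n = 4), 103.8 ± 17.0 (n = 4) and 50.2 ± 3.17 (n = 3), or 52.1 ± 4.55 with animal 10 (n = 4).

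For O2-PBS against RA-PBS, the comparison that chose it, Fgf2 had a log2 fold change of 2.37 (SE 0.171), a 5.19-fold higher level. It ranked 1 by p, which is the rule that chose it. The rank was the same with all 12 animals, a fit that compares the same RA-PBS and O2-PBS animals. The gene ranked next was Edn2, encoding endothelin 2, a peptide made by stressed photoreceptors, with means of 30.7 in O2-PBS and 0.91 normalised CPM in RA-PBS.

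The comparison of O2-IC100 with O2-PBS shares the O2-PBS animals with the one that chose Fgf2. Fgf2 was lower in O2-IC100, with a log2 fold change of -1.03 (SE 0.178, adjusted p = 0.0343), a 2.04-fold difference, and each of the 3 animals lay below each O2-PBS animal. The size was -0.99 with all 12 animals, where the call was lost (adjusted p = 0.287). The call was also lost without animal 5 (-0.96, adjusted p = 0.106), animal 9 (-0.98, 0.193), animal 11 (-1.07, 0.147) or animal 12 (-1.04, 0.201). Transcripts of 4 Y-linked genes were low (4.04 to 9.85 summed normalised CPM) in animals 4, 5, 6, 7 and 10 and high (223.3 to 324.0) in the other 7, so 3 of 4 O2-PBS animals and none of the 3 O2-IC100 animals tested were low. In RA-PBS only animal 4 was low, so O2-PBS and RA-PBS were unlike in this too. With the sum of the log2 levels of the 4 Y-linked genes as a covariate, the log2 fold change of Fgf2 in O2-IC100 against O2-PBS was -1.003 (adjusted p = 0.119). Across the alternatives other than leaving out 1 animal, the adjusted p ranged from 8.88e-06 to 0.287 and the log2 fold change from -1.06 to -0.99.

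Against RA-PBS, whose animals the choosing comparison also used, Fgf2 was higher in O2-IC100 by 1.34 on the log2 scale (SE 0.177, adjusted p = 0.00616), a 2.54-fold higher level. The value was 1.38 with all 12 animals and the call was lost (adjusted p = 0.119). The difference was called in each fit that left out 1 further animal, with log2 fold changes of 1.25 to 1.55.

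**Figure D1:**
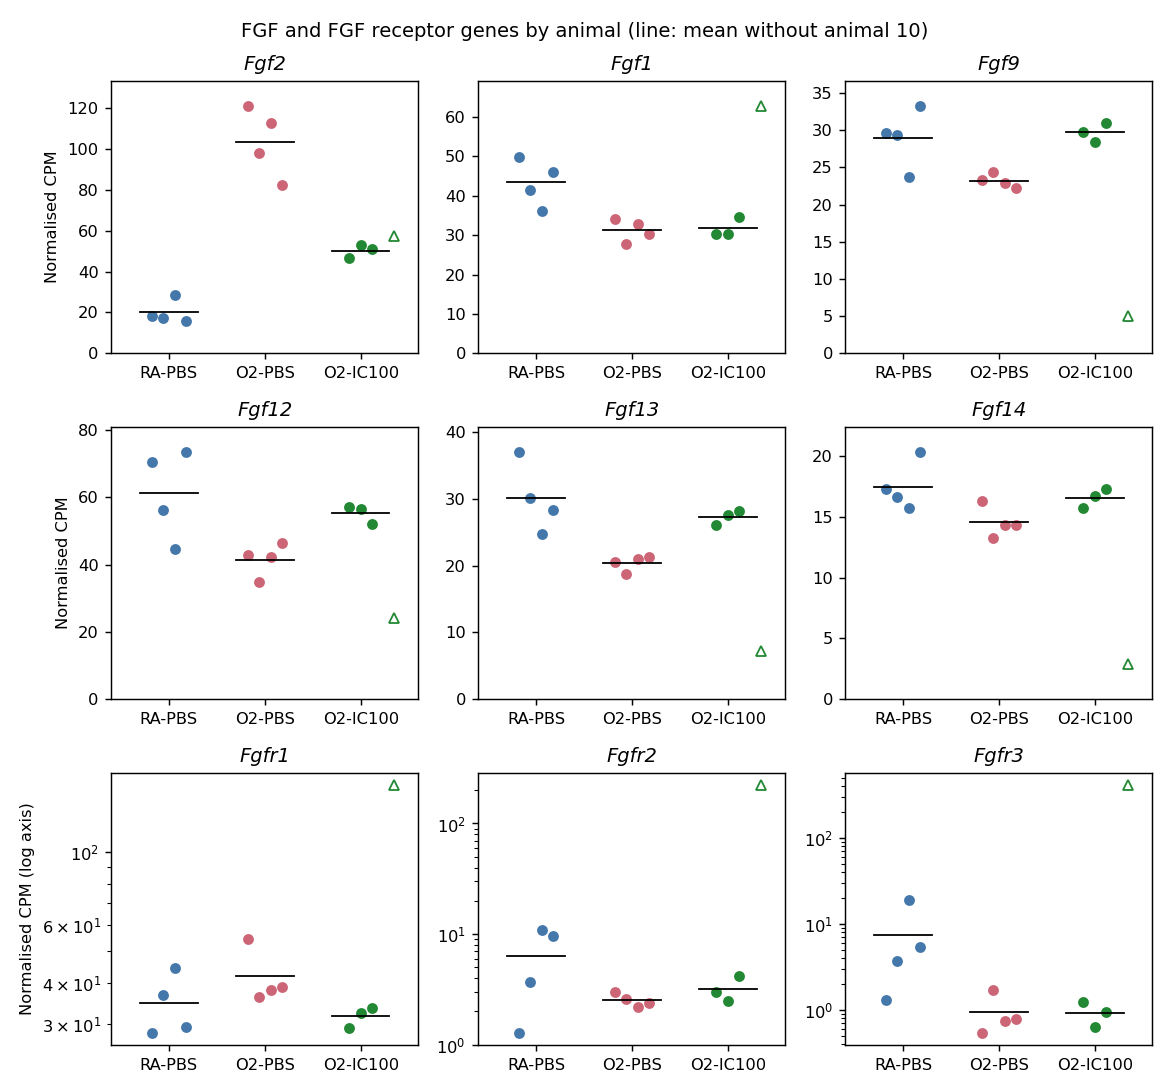
Normalised CPM of the 9 genes in each animal by group, with filled points for the 11 animals tested, an open triangle for O2-IC100 animal 10 and a line at the group mean without it. The receptor panels have a log axis, and Fgf2 was 16.01 to 28.6 in RA-PBS, 82.7 to 121.3 in O2-PBS and 46.7 to 57.7 in O2-IC100, and animal 10 stood far from its group for Fgfr2 (222.7) and Fgfr3 (416.2).

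Ratios within a library do not depend on its scaling. The Fgf2 to Fgf1 ratio of normalised CPM was 0.347 to 0.794 in RA-PBS, 2.73 to 3.57 in O2-PBS and 1.47 to 1.74 in O2-IC100 animals 9, 11 and 12, and 0.918 in animal 10. The Fgf2 to Fgf9 ratio was 0.481 to 1.21, 3.72 to 5.20 and 1.57 to 1.86 in the same groups, and 11.4 in animal 10. Compared between genes per kilobase of the longest coding transcript (GENCODE, GRCm38), Fgf2 was number 7 of the 9 members in RA-PBS (3.35 ± 0.974 normalised CPM per kb, n = 4), the first in O2-PBS (17.4 ± 2.85, n = 4) and the third in O2-IC100 (8.41 ± 0.531, n = 3). Fgf12 was the first in RA-PBS and in O2-IC100, at 14.8 ± 3.24 and 13.4 ± 0.657 normalised CPM per kb. Neighbours in O2-IC100 were within their spread of each other, with Fgf9 at 8.27 ± 0.351 and Fgf1 at 7.99 ± 0.634.

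Nudt6 lies across Fgf2 on the other strand and encodes a Nudix hydrolase. The strand used in counting is not given in the sources used here, so reads of the overlap could not be told apart. Nudt6 had 0 counts in RA-PBS animal 1 and 2.11 to 3.11 normalised CPM in the other RA-PBS animals, 3.60 to 4.88 in O2-PBS and 2.11 to 3.03 in O2-IC100 animals 9, 11 and 12. It was not called in O2-PBS against RA-PBS (log2 fold change 1.20, SE 0.575, adjusted p = 0.251) or in O2-IC100 against O2-PBS (-0.70, SE 0.611, adjusted p = 0.532). Of the genes beside Fgf2, Spata5 did not pass the test in any of the 3 comparisons, and Spry1 is described with the response genes.

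The genes whose log2 levels followed Fgf2 most closely over the 11 animals, of 14957 genes compared, were Lcp1 (Pearson r = 0.987, Spearman rho = 0.955), Piezo2 (r = 0.985, rho = 0.964), Edn2 (r = 0.983, rho = 0.90), Lad1 (r = 0.98, rho = 0.982) and Egln3 (r = 0.98, rho = 0.964). These are descriptions over animals that fall into the same 3 groups. Lcp1 encodes the leukocyte actin-bundling protein plastin, Piezo2 a mechanically gated channel, Lad1 the filament protein ladinin and Egln3 a HIF prolyl hydroxylase that hypoxia induces. Egln3 was 3.53 to 5.44 normalised CPM in RA-PBS, 12.1 to 20.6 in O2-PBS and 7.35 to 8.88 in O2-IC100. Piezo2 was 1.16 to 2.39, 6.67 to 9.77 and 3.19 to 4.66 normalised CPM in the same order of groups. With animal 10 the r of Piezo2 was 0.786 and that of Edn2 0.983.

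Marker lists of several cell types also differed between the groups. The summed level of 10 reactive glia and retinal stress genes, a list that holds Edn2, was 191.2 to 540 normalised CPM in RA-PBS, 466.3 to 858.3 in O2-PBS and 308 to 403.7 in O2-IC100 animals 9, 11 and 12, and 834.1 in animal 10. Of these genes 5 of 10 were called higher in O2-PBS than in RA-PBS, beside 4.09% of all tested genes, and 2 of 10 lower in O2-IC100 than in O2-PBS, beside 0.731%. The 14 endothelial genes summed to 296.8 to 416.3, 574.3 to 671.5 and 398.7 to 448.6 normalised CPM in the same order, and 81.9 in animal 10, with 11 of 14 called higher and 5 of 14 lower in the same 2 comparisons. With all 12 animals 3 of each list were called higher and 0 lower. The 10 microglia genes summed to 35.2 to 72.7, 74.5 to 92.4 and 88.1 to 108.7 normalised CPM, and 398.2 in animal 10, with 4 of 10 called higher in O2-PBS than in RA-PBS and none called between O2-IC100 and O2-PBS. Timp1 was at 0 in some of the 11 animals, and no other gene of these lists was. The 10 Müller glia genes summed to 3834 to 5198, 3231 to 3552 and 3662 to 4004 normalised CPM. The part of any of these cells in the Fgf2 levels was not tested.

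The other ligands were lower in O2-PBS than in RA-PBS by less than 1.5-fold. Fgf1, which encodes acidic FGF and can bind all FGF receptors, was 49.9, 41.6, 36.1 and 46.1 normalised CPM in RA-PBS, 34.0, 27.7, 32.8 and 30.3 in O2-PBS, and 30.4, 30.3 and 34.7 in O2-IC100 animals 9, 11 and 12. The RA-PBS animals lay above all others but animal 10, which was at 62.9. The log2 fold change of O2-PBS against RA-PBS was -0.48 (SE 0.109). O2-IC100 differed from O2-PBS by 0.04 (SE 0.117, 95% interval -0.21 to 0.30, adjusted p = 0.858). O2-IC100 against RA-PBS gave -0.44 (SE 0.118, adjusted p = 0.0994), under the 1.5-fold needed for a call. The 2 values were 0.34 (adjusted p = 0.419) and -0.14 (adjusted p = 0.768) with animal 10.

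Fgf9, a secreted ligand made by neurons, was 29.6, 29.4, 23.7 and 33.3 normalised CPM in RA-PBS, 23.3, 24.4, 23.0 and 22.2 in O2-PBS, and 29.8, 28.4 and 30.9 in O2-IC100 animals 9, 11 and 12. RA-PBS animal 3 lay within the O2-PBS range, and the 3 O2-IC100 animals lay above that range. Animal 10 was at 5.05. The log2 fold change of O2-PBS against RA-PBS was -0.32 (SE 0.102). For O2-IC100 against O2-PBS it was 0.37 (SE 0.109, 95% interval 0.14 to 0.60, adjusted p = 0.143), and 0.03 with all 12 animals. Against RA-PBS it was 0.05 (SE 0.109, adjusted p = 0.866), and -0.29 (adjusted p = 0.721) with animal 10.

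The intracellular FGFs Fgf12, Fgf13 and Fgf14 had their lowest mean in O2-PBS. Fgf13, on the X chromosome, was 37.1, 30.1, 24.7 and 28.4 normalised CPM in RA-PBS, 20.5, 18.8, 20.98 and 21.3 in O2-PBS, and 26.0, 27.6 and 28.2 in O2-IC100 animals 9, 11 and 12. O2-PBS did not overlap either group, and O2-IC100 lay within the RA-PBS range. The log2 fold change of O2-PBS against RA-PBS was -0.56 (SE 0.115), a 1.48-fold lower level. For O2-IC100 against O2-PBS it was 0.44 (SE 0.124, 95% interval 0.17 to 0.70, adjusted p = 0.131) and was not called. It was 0.13 (adjusted p = 0.839) with all 12 animals, with animal 10 at 7.20 normalised CPM. Against RA-PBS it was -0.13 (SE 0.123, adjusted p = 0.662), and -0.43 (adjusted p = 0.517) with animal 10. With the Y-linked covariate the Fgf13 values were -0.52 for O2-PBS against RA-PBS and 0.37 (adjusted p = 0.206) for O2-IC100 against O2-PBS. For O2-IC100 against RA-PBS that fit gave -0.15 (adjusted p = 0.556).

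Fgf12 was 70.5, 56.2, 44.6 and 73.6 normalised CPM in RA-PBS, 42.8, 34.8, 42.2 and 46.3 in O2-PBS, and 57.2, 56.4 and 52.2 in O2-IC100 animals 9, 11 and 12. RA-PBS animal 3 lay below O2-PBS animal 8, and the O2-IC100 animals lay above the O2-PBS ones. The log2 fold change was -0.56 (SE 0.142) for O2-PBS against RA-PBS. It was 0.43 (SE 0.152, 95% interval 0.10 to 0.76, adjusted p = 0.187) for O2-IC100 against O2-PBS, and -0.13 (SE 0.152, adjusted p = 0.709) against RA-PBS, and 0.20 and -0.36 with animal 10 (23.99 normalised CPM). Fgf14, mutated in a form of spinocerebellar ataxia, had means of 17.5 ± 2.03, 14.6 ± 1.27 and 16.6 ± 0.814 normalised CPM in RA-PBS, O2-PBS and O2-IC100, with overlapping ranges. Its log2 fold changes were -0.27 (SE 0.109) for O2-PBS against RA-PBS and 0.21 (SE 0.117, adjusted p = 0.34) for O2-IC100 against O2-PBS, the latter -0.13 with animal 10. RA-PBS animals 2, 3 and 4 held lens RNA. The difference of O2-PBS from RA-PBS was therefore also fitted with the lens marker level as a covariate. This gave log2 fold changes of -0.70 for Fgf1, -0.84 for Fgf12 and -0.86 for Fgf13, and 2.56 for Fgf2. Among the animals tested, lens levels were high only in RA-PBS animals 2, 3 and 4. The RA-PBS side of these values therefore rests largely on 1 library, animal 1.

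The genes most like Fgf13 over the 11 animals were Gabrb2, a GABA-A receptor subunit (r = 0.983, rho = 0.982), Gm42372 (r = 0.979, rho = 0.973) and Arl4c, a small GTPase (r = 0.974, rho = 0.936). Gabrb2 was 26.4 to 40.0 normalised CPM in RA-PBS, 19.1 to 22.1 in O2-PBS and 26.0 to 31.6 in O2-IC100. The summed level of 12 ganglion cell markers, none at 0 in any of the 11 animals, was 1167 to 1685 in RA-PBS, 940.8 to 1041 in O2-PBS and 1141 to 1186 in O2-IC100. In O2-PBS 1 of the 12 was called lower than in RA-PBS, beside 2.18% of all tested genes. None was called between O2-IC100 and O2-PBS, where 0.216% of all tested genes were called higher and 0.731% lower. The horizontal cell, amacrine cell, bipolar cell and Müller glia lists also had their highest mean in RA-PBS. The cone mean was lowest there (1369 normalised CPM, against 1555 in O2-PBS and 1575 in O2-IC100). The reactive glia mean was lowest in RA-PBS too, and the rod ranges of the groups overlapped. The 6 horizontal cell markers summed to 499.2 to 635, 387.9 to 416.6 and 423.3 to 462.5 normalised CPM in RA-PBS, O2-PBS and O2-IC100, and the 10 amacrine cell markers to 1013 to 1392, 904.7 to 997.7 and 958.1 to 1014, beside the Müller glia values above. The part of these cells in the levels of the intracellular FGFs was not tested.

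**Figure D2:**
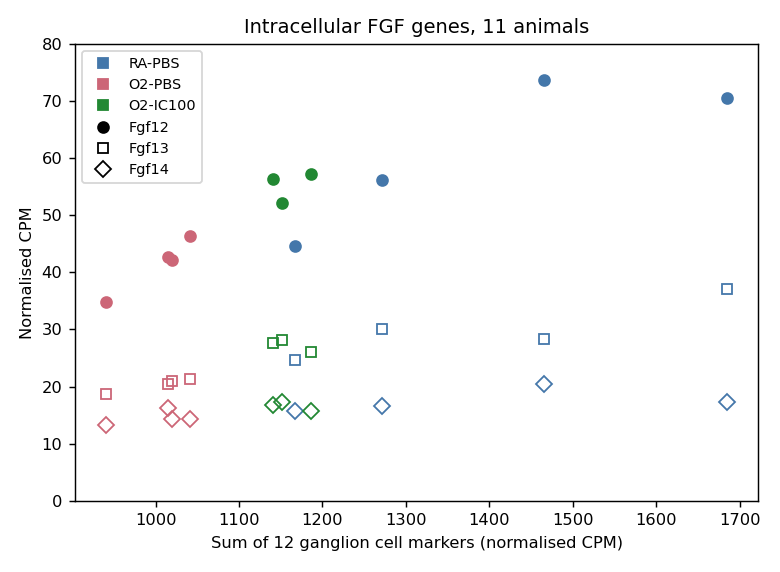
Normalised CPM of Fgf12 (filled circles), Fgf13 (open squares) and Fgf14 (open diamonds) against the summed normalised CPM of 12 ganglion cell markers in the 11 animals, coloured by group. The O2-PBS animals sit lowest on both axes for Fgf13 (18.8 to 21.3), with O2-IC100 at 26.0 to 28.2.

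Fgf9, Fgf12 and Fgf13 had their lowest mean in O2-PBS and no O2-IC100 animal tested within the O2-PBS range, and the 250 bases before a RefSeq start of each are shown because their group levels stood alike. Sequences are from RefSeq on GRCm38.p6, which is not the build of the counts, and the counts do not tell which start was used. The windows are chr14:58072436-58072685 on the + strand for Fgf9, chr16:28753244-28753493 on the - strand for Fgf12 and chrX:59134437-59134686 on the - strand for Fgf13, read 5′ to 3′ toward the start. None holds annotated exon bases. Capitals mark ACGTG, the core letters of the hypoxia response element, on either strand.
Fgf9: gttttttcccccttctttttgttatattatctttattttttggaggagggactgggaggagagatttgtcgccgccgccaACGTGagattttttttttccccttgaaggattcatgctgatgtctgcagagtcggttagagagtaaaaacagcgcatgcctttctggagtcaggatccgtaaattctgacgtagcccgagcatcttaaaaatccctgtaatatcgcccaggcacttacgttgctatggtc
Fgf12: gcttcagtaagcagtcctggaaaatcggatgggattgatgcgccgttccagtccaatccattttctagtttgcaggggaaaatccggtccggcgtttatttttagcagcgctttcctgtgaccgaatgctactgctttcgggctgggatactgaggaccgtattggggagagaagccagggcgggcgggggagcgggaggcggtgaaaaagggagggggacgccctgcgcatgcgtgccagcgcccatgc
Fgf13: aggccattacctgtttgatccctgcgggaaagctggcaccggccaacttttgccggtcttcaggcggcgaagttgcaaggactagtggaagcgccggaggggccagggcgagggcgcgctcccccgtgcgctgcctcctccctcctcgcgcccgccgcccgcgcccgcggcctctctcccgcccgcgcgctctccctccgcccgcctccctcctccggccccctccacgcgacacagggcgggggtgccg

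ACGTG was present once, 170 bases before the Fgf9 start. Over all 32851 such windows, 16.6% held ACGTG, 7.02% held TTCNNNGAA, the STAT letters, and 6.75% held TGANTCA, the AP-1 letters. Windows were found for 7 of the 9 members (14 windows). That of Fgf2 held none of these motifs, which says only that the letters are not in this window. All 250 bases of the Fgf2 window lie in annotated exons. Among windows not shown, a window of Fgf12 held TTCNNNGAA, and another of Fgf12 and a window of Fgf13 held TGANTCA. Those windows hold annotated exon bases. No window of the members held more than 1 of the 3 motifs.

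Of the receptors, Fgfr1, the most abundant of the 3 here per kilobase, was 28.2, 36.8, 44.5 and 29.3 normalised CPM in RA-PBS, 54.5, 36.3, 37.9 and 38.9 in O2-PBS, and 29.1, 32.5 and 33.5 in O2-IC100 animals 9, 11 and 12. RA-PBS overlapped both groups, and O2-IC100 lay below O2-PBS. Its log2 fold change was 0.27 (SE 0.153) for O2-PBS against RA-PBS and -0.39 (SE 0.166, 95% interval -0.74 to -0.03, adjusted p = 0.238) for O2-IC100 against O2-PBS. The latter was 0.60 (adjusted p = 0.517) over all 12 animals, with animal 10 at 160.2 normalised CPM.

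Fgfr3, whose activating mutations restrain bone growth, was 1.29, 3.67, 19.3 and 5.37 normalised CPM in RA-PBS, 0.543, 1.72, 0.735 and 0.776 in O2-PBS, and 1.22, 0.624 and 0.932 in O2-IC100 animals 9, 11 and 12. RA-PBS animals 2, 3 and 4, which held lens RNA, were above all O2-PBS and O2-IC100 animals except animal 10 (416.2), and RA-PBS animal 1, without it, lay within their range. The log2 fold change of O2-PBS against RA-PBS was -2.94 (SE 0.719) with 11 animals. It was -0.36 with the lens marker level as a covariate, a fit whose RA-PBS level rests largely on animal 1. It was -0.45 without animals 2, 3, 4 and 10, which leaves RA-PBS animal 1 alone in its group. O2-IC100 differed from O2-PBS by -0.03 (SE 0.842, 95% interval -1.88 to 1.81, adjusted p = 0.986), and by 6.77 (adjusted p = 0.287) with animal 10. Against RA-PBS the value was -2.97 (SE 0.801, adjusted p = 0.11), and 3.82 (adjusted p = 0.375) with animal 10.

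Fgfr2, the receptor of FGF10 in epithelia, was 1.29, 3.67, 11.0 and 9.58 normalised CPM in RA-PBS, 3.02, 2.61, 2.21 and 2.38 in O2-PBS, and 2.98, 2.50 and 4.17 in O2-IC100 animals 9, 11 and 12. RA-PBS animals 3 and 4 lay above the other 9 animals tested and animal 1 below them. The log2 fold change of O2-PBS against RA-PBS was -1.32 (SE 0.486). It was 0.75 with the lens covariate and 0.97 without animals 2, 3, 4 and 10, fits where RA-PBS rests largely or wholly on animal 1. O2-IC100 against O2-PBS gave 0.35 (SE 0.529, 95% interval -0.80 to 1.49, adjusted p = 0.732), and 4.49 (adjusted p = 0.287) with animal 10, at 222.7 normalised CPM. Against RA-PBS it gave -0.97 (SE 0.52, adjusted p = 0.397), and 3.17 (adjusted p = 0.374) with animal 10.

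Beside these receptor values, the 21 lens markers summed to 34.1 normalised CPM in RA-PBS animal 1 and to 11960, 43620 and 13780 in animals 2, 3 and 4, against 34.6 to 152.7 in O2-PBS and 42.6 to 84.0 in O2-IC100 animals 9, 11 and 12. Of 20 lens markers tested, 20 were called lower in O2-PBS than in RA-PBS, beside 2.18% of all tested genes, and 13 of the 21 were at 0 in at least 1 of the 11 animals. The 10 retinal pigment epithelium markers summed to 105.1 in animal 1 and 206.1 to 311.1 in animals 2 to 4, 62.0 to 127.6 in O2-PBS and 154.2 to 156.4 in O2-IC100, and 6 of 10 were called lower in O2-PBS than in RA-PBS. No pigment epithelium marker was at 0 in the 11 animals. With all 12 animals 0 markers of either list were called.

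**Figure D3:**
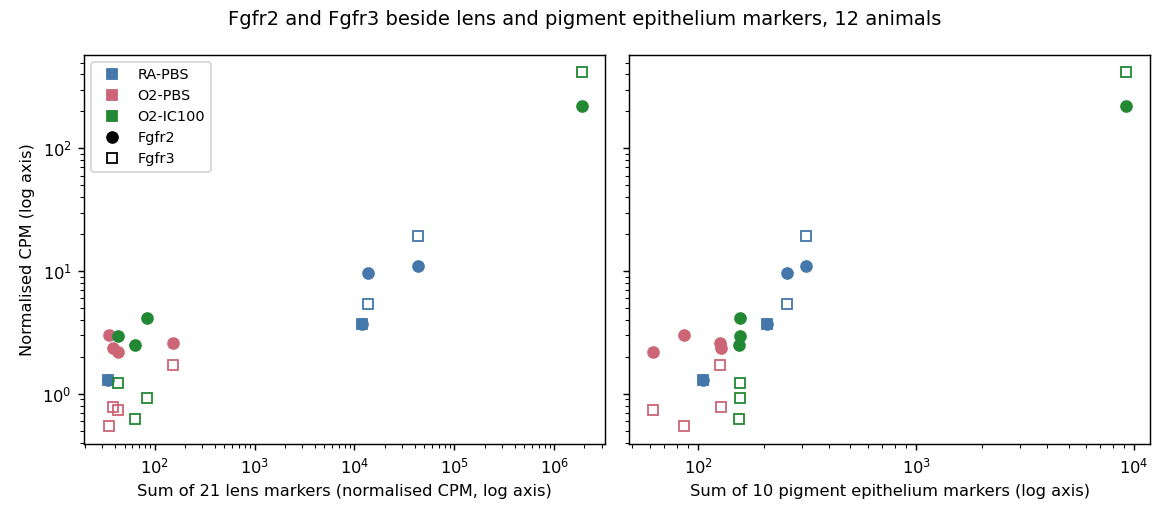
Normalised CPM of Fgfr2 (filled circles) and Fgfr3 (open squares) in the 12 animals against the summed normalised CPM of 21 lens markers and of 10 pigment epithelium markers, all axes log, coloured by group. RA-PBS animals 2, 3 and 4 and O2-IC100 animal 10 are the 4 animals with high lens sums (11960 or more), and they hold the 4 highest Fgfr3 levels, 3.67 to 416.2.

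By the 3 thresholds, 1 of the 9 members was called higher (Fgf2) and 1 lower (Fgfr3) in O2-PBS than in RA-PBS, where 4.09% of all tested genes were called higher and 2.18% lower. Fgf2 was selected on this comparison, so nothing is read from that count. With all 12 animals Fgf2 alone was called, against 0.807% of 16489 genes in either direction. In O2-IC100 against O2-PBS, 1 of 9 was called lower (Fgf2), against 0.731% of all tested genes lower, and 0 of 9 higher, against 0.216%. In O2-IC100 against RA-PBS, 1 of 9 was called higher (Fgf2), against 0.947%, and 0 of 9 lower, against 0.617%. Both comparisons share animals with the one that chose Fgf2, so nothing is read from these counts either. With all 12 animals edgeR called 0% of genes in either O2-IC100 comparison (0 of 16489), although 2784 and 2183 genes had an unadjusted p below 0.05. On 11 animals DESeq2 called 394 and 562 of 25267 genes and limma voom 137 and 252 of 16688 in these comparisons. The median log2 fold change of the 9 members was -0.48, 0.21 and -0.13 in the 3 comparisons, beside -0.01, 0.0040 and 0.02 over all tested genes.

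**Figure D4:**
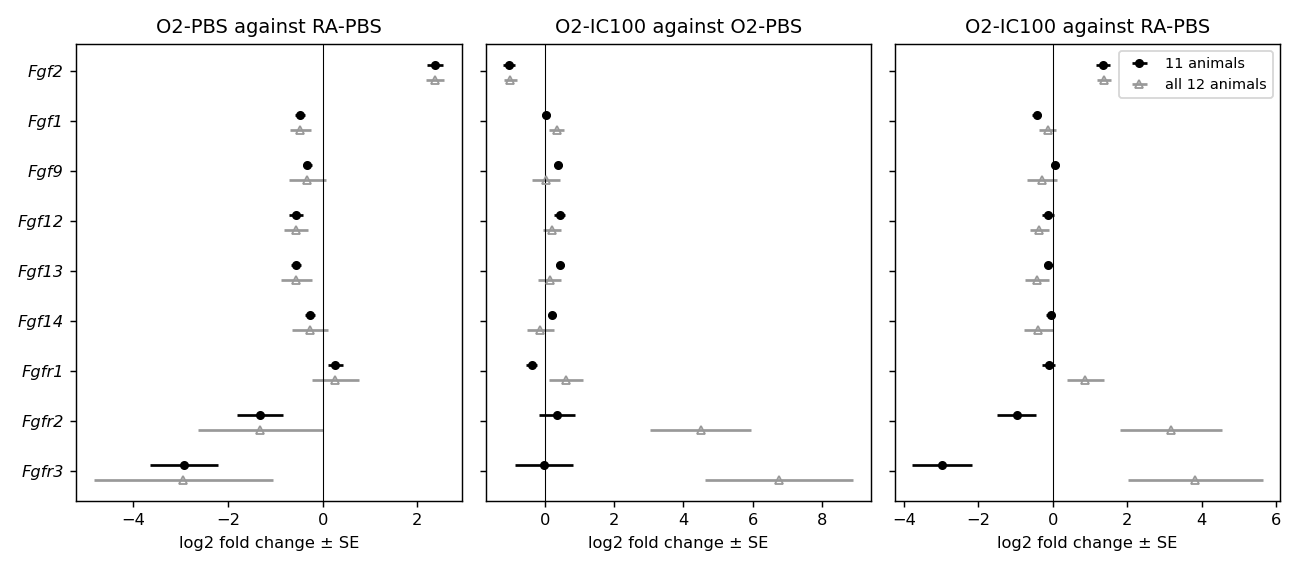
Log2 fold change ± SE of the 9 genes in the 3 comparisons, with filled circles for the 11 animals tested and open triangles for all 12, each panel with its own scale. For O2-IC100 against O2-PBS, Fgf2 was -1.03 and -0.99 and Fgfr3 -0.03 and 6.77 with 11 and with all 12 animals. The Fgf2 level of animal 10 depends on the scaling of that lens-rich library.

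Among the FGF response and feedback genes, 5 of 17 were called higher in O2-PBS than in RA-PBS and none lower (median log2 fold change 0.17), beside 4.09% of all tested genes higher and 2.18% lower. Ccnd1, encoding cyclin D1, rose from 26.1 ± 4.38 to 41.8 ± 2.30 normalised CPM (n = 4 each, log2 fold change 0.68, SE 0.111, adjusted p = 0.00269). Spry1, a Sprouty inhibitor of receptor signalling, rose from 9.76 ± 0.768 to 15.7 ± 2.44 (0.69, SE 0.123, adjusted p = 0.00415). The immediate early gene Fos rose from 20.2 ± 3.31 to 39.6 ± 12.3 (0.97, SE 0.20, adjusted p = 0.01), and Myc from 0.75 ± 0.473 to 2.54 ± 0.861 (1.74, SE 0.457, adjusted p = 0.032). The fifth was Il17rd, a membrane inhibitor of FGF signalling, at 4.02 ± 1.14 and 6.80 ± 1.18 (0.76, SE 0.209, adjusted p = 0.0412). Of common readouts of the cascade, named after their values were seen, 3 were not called, with log2 fold changes of 0.17 for Dusp6 (adjusted p = 0.479), -0.12 for Etv4 (adjusted p = 0.683) and -0.05 for Etv5 (adjusted p = 0.80). None of these genes was called with all 12 animals (median 0.17).

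In O2-IC100 against O2-PBS 1 of the 17 was called, Ccnd1, which fell to 26.2 ± 1.91 normalised CPM (n = 3, log2 fold change -0.66, SE 0.121, adjusted p = 0.0381). The value was 0.76 over all 12 animals (adjusted p = 0.505), with animal 10 at 206.0 normalised CPM. Ccnd1 was also not called without animal 5, 7, 9, 11 or 12, or with the Y-linked covariate. Spry1 had 14.5 ± 0.675 in O2-IC100, a difference of -0.10 (SE 0.13, adjusted p = 0.69) from O2-PBS, and of 0.98 (adjusted p = 0.336) with animal 10, at 81.2 normalised CPM. It was the gene called in O2-IC100 against RA-PBS (0.59, SE 0.131, adjusted p = 0.0594), at a fold change near the 1.5-fold threshold. The call was lost with all 12 animals (1.66, adjusted p = 0.374) and without animal 1, 2, 5, 9, 11 or 12. It was also lost with DESeq2, RLE scaling, no filter, a filter of 1 CPM in 3 animals, the Y-linked covariate and only the 2 groups compared. In animals 9, 11 and 12 Spry1 was 13.8 to 15.2 normalised CPM, within the O2-PBS range of 12.7 to 18.2, whereas Fgf2 in these 3 animals (46.7 to 52.9) lay below its O2-PBS range.

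Of 8 other FGF genes that passed the filter among 16, only Fgf10, a ligand made by mesenchyme, was called in O2-PBS against RA-PBS, and none in the other 2 comparisons. Over all tested genes 4.09% were called higher and 2.18% lower in O2-PBS against RA-PBS. Fgf10 fell from 4.21 ± 1.37 to 1.90 ± 0.341 normalised CPM in O2-PBS (log2 fold change -1.15, SE 0.251, adjusted p = 0.0136) and had 2.95 ± 0.387 in O2-IC100 (0.65 against O2-PBS, SE 0.27, adjusted p = 0.231). Over all 12 animals the call was lost (-1.15, adjusted p = 0.268). Fgf23, an endocrine FGF, had 0.387 normalised CPM in O2-IC100 and 1.18 in O2-PBS (-1.57, SE 0.557, adjusted p = 0.188).

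Of 19 receptor-like genes, co-receptors and carriers, 1 was called higher and 1 lower in O2-PBS than in RA-PBS, beside 4.09% and 2.18% of all tested genes. Gpc4, a glypican, was the higher one (0.69, SE 0.22, adjusted p = 0.0716), and Fgfrl1, a receptor without a kinase domain, the lower (-0.63, SE 0.211, adjusted p = 0.0886). Both calls were lost over all 12 animals (adjusted p = 0.797 and 1). Fgfrl1 reached 349.8 normalised CPM in animal 10 and up to 11.5 in RA-PBS, against 4.59 to 5.97 in O2-PBS. None was called in the O2-IC100 comparisons, where the smallest p belonged to Agrn, a heparan sulfate proteoglycan, against O2-PBS (-0.49, SE 0.14, adjusted p = 0.133) and to Gpc2 against RA-PBS (0.35, SE 0.107, adjusted p = 0.143). Flrt2, a partner of FGF receptors, gave 0.35 against O2-PBS (adjusted p = 0.189), and Fgfr4 gave -1.13 against RA-PBS (adjusted p = 0.155). The values of Gpc2 and Flrt2 were 0.0051 and 1.26 over all 12 animals.

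Of 16 heparan sulfate enzymes 1 was called lower in O2-PBS than in RA-PBS and none higher, beside 2.18% and 4.09% of all tested genes. This was Ndst4, an N-sulfotransferase, at 7.08 ± 0.595 in RA-PBS and 4.67 ± 0.984 normalised CPM in O2-PBS (-0.60, SE 0.172, adjusted p = 0.0474), and that call was lost over all 12 animals (adjusted p = 1). In O2-IC100 against O2-PBS the smallest p belonged to Sulf1, a 6-O-endosulfatase (-0.30, adjusted p = 0.176, and 0.70 over all 12 animals), and Ndst2 (-0.22, adjusted p = 0.242), and against RA-PBS to Sulf2 (-0.50, adjusted p = 0.11) and Hs6st2 (-0.34, adjusted p = 0.315). None of 22 adaptors and MAP kinase genes was called in any of the 3 comparisons. Gab1, a docking protein, was nearest, at 0.32 for O2-PBS against RA-PBS (adjusted p = 0.0522) and -0.52 for O2-IC100 against O2-PBS (SE 0.102, adjusted p = 0.0484), under 1.5-fold, the latter 0.14 (adjusted p = 0.85) over all 12 animals. Nras gave 0.28 (adjusted p = 0.0754) for O2-PBS against RA-PBS, and Ptpn11, the phosphatase SHP2, -0.21 (adjusted p = 0.167) for O2-IC100 against RA-PBS, and 0.087 over all 12 animals.

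The partners of the intracellular FGFs were sodium channel subunits and a scaffold protein gene, and 2 of 14 tested were called lower in O2-PBS than in RA-PBS and none higher, beside 2.18% and 4.09% of all tested genes. Scn7a fell from 13.7 ± 3.39 to 9.03 ± 1.65 normalised CPM (-0.60, SE 0.177, adjusted p = 0.0531) and Scn11a from 0.963 ± 0.441 to 0.405 ± 0.0642 (-1.24, SE 0.407, adjusted p = 0.0816). The list's median log2 fold change was -0.45, with 2 of 14 values above 0, beside -0.01 over all tested genes. In O2-IC100 against O2-PBS none was called and the median was 0.04, and Fgf12, Fgf13 and Fgf14 gave 0.43, 0.44 and 0.21. Scn8a, the main axonal channel of many neurons, had the smallest p there (-0.46, SE 0.169, adjusted p = 0.196), followed by Scn4a (-0.38, adjusted p = 0.205). Against RA-PBS Scn2a gave -0.43 (SE 0.0813, adjusted p = 0.0344), under 1.5-fold, and Scn9a -0.62 (adjusted p = 0.109). With all 12 animals the list's medians were -0.45, -0.30 and -0.63, and no gene was called.

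**Figure D5:**
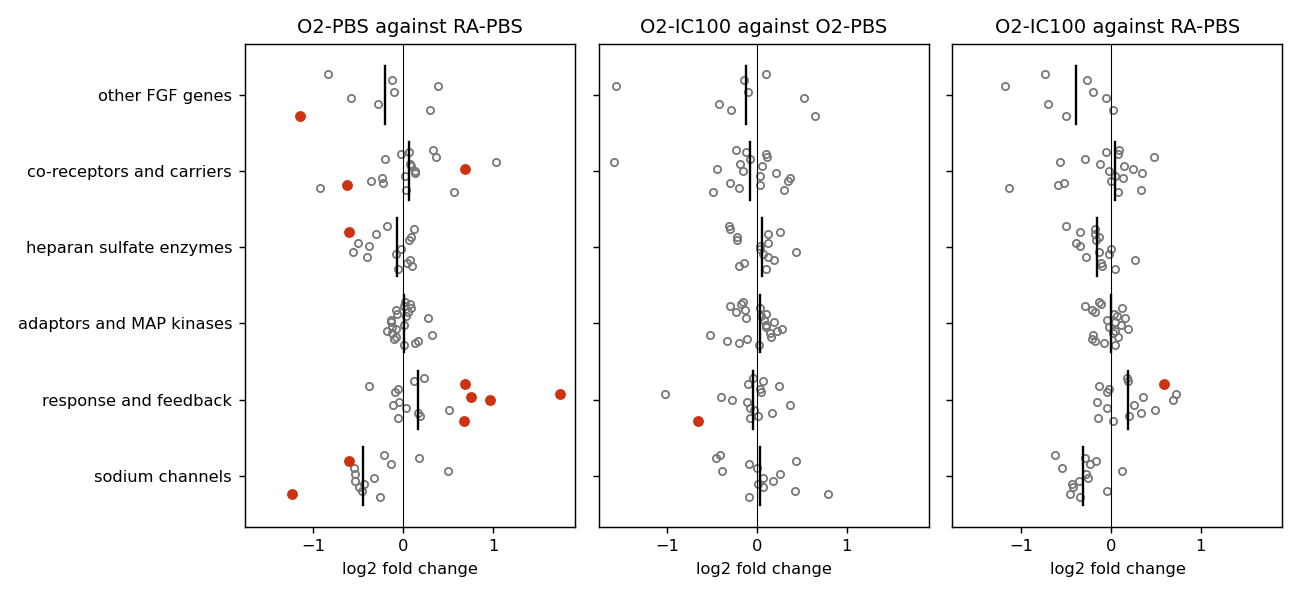
Log2 fold change of each tested gene of 6 lists around the FGF system in the 3 comparisons (11 animals), with filled red points for called genes, open points for the rest and a line at each list's median. Called genes were 5 of 17 response and feedback genes in O2-PBS against RA-PBS, and 1 in each of the other 2 comparisons.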

How the data were processed

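RNA-seq was done on 12 mouse retina libraries (poly(A) RNA, 150 bp paired-end reads). The authors pseudoaligned reads to GRCm39 (release 104) with Kallisto and summarized them per gene with tximport, and the values the authors deposited are expected counts per gene, estimated counts with no normalization, of which 42.2% are not whole. Versions are not given in the sources used here. Counts were rounded. Symbols were matched by Ensembl ID for 35374 of 36131 genes. edgeR 4.0.16 (R 4.3.3) was run with TMM factors, filterByExpr and the robust quasi-likelihood F test (two-sided), with 1 model of 3 groups on 11 animals, and p-values were adjusted by Benjamini-Hochberg over 16688 genes. Calls used the study's thresholds. Levels used TMM factors over all 12 animals, and log2 levels an offset of 0.5 CPM. Each animal is 1 replicate, and replicate numbers do not pair animals across groups. The members and lists, and the choice to leave out animal 10, were made with earlier results of these data known. Named genes were all members, Nudt6, per list the called genes (up to 4 by p) or else the 2 with the smallest p, the gene next to Fgf2 by p, the 5 most like Fgf2 and the 3 most like Fgf13; others are marked, and a gene that the rule names is not reported here. Alternatives were DESeq2 1.42.0, limma 3.58.1 (voom), RLE and upper quartile scaling, other filters, only the 2 groups compared, a Y-linked covariate and leaving out animals, and, added after seeing the data, a lens covariate and leaving out animals 2, 3, 4 and 10. On simulated counts for O2-PBS against RA-PBS, edgeR recovered 98% of 200 changed genes among 16688, with 19 false calls. The changes had 1 fixed size and were placed only in genes with high counts. All genes shared 1 dispersion, and lens RNA did not differ between animals. These rates therefore do not carry over to low-count genes, smaller changes or uneven libraries. Spry3 and Afg2a were not matched by symbol.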

Additional observations from a re-analysis of the deposited data

Results flagged for a closer look

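For each of the 9 genes in each group of 4 animals, the gap of the highest or lowest animal to its nearest neighbour was divided by the group's range and compared with Dixon's 95% critical value for 4 animals. In all, 10 of 27 groups exceeded it, 8 of them through O2-IC100 animal 10, and chance alone gives about 1.35. Animal 10, the lens-rich library, had the highest level of its group for Fgf1 (62.9 normalised CPM, others 30.3 to 34.7), Fgfr1 (160.2, others 29.1 to 33.5), Fgfr2 (222.7, others 2.50 to 4.17) and Fgfr3 (416.2, others 0.624 to 1.22). It had the lowest for Fgf9 (5.05, others 28.4 to 30.9), Fgf12 (23.99, others 52.2 to 57.2), Fgf13 (7.196, others 26.0 to 28.2) and Fgf14 (2.904, others 15.7 to 17.3). Fgf2 did not stand apart there in normalised CPM, which depends on the scaling of animal 10. In RA-PBS, animal 3 had the highest Fgf2 (28.64, others 16.01 to 18.1), and it also had the largest lens share of the 11 animals tested (4.67%). In O2-PBS, animal 5 had the highest Fgfr1 (54.51, others 36.3 to 38.9).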

How the results depend on the processing

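No paired analysis was possible because the animal numbers, 1 to 12, are unique and shared by no 2 groups. In the order O2-PBS against RA-PBS (A), O2-IC100 against O2-PBS (B) and O2-IC100 against RA-PBS (C), 2, 1 and 1 members and 11, 1 and 1 list genes were called. Over all 16688 tested genes, 1046, 158 and 261 were called. All 12 animals gave 1, 0 and 0 members and 0, 0 and 0 list genes. Leaving out 1 animal gave 2 to 4, 0 to 1 and 1 to 2 members and 6 to 16, 0 to 2 and 0 to 6 list genes. The lens covariate gave 4 members and 21 list genes in A and 2 and 10 in C, and leaving out animals 2, 3, 4 and 10 gave 5 and 23 in A and 3 and 13 in C, where A had 3285 and 4246 genes called in all. The latter fit leaves RA-PBS with animal 1 alone, assumed to vary like the other groups. In the lens covariate fit the RA-PBS level also rests largely on animal 1. The Y-linked covariate gave 0 members in B and 7 and 0 list genes in A and B, with 874 and 39 genes called in all. Fitting only the 2 groups compared gave 7, 6 and 0 list genes, with 867, 789 and 18 genes called in all. DESeq2 gave 2 members in C and 2 and 3 list genes in B and C, with 394 and 562 genes called in all. limma voom gave 1 member in A and 2 list genes in C, and in C no filter and a filter of 1 CPM in 3 animals each gave 0 list genes. The planned fit without animals 1 and 10, meant to remove the libraries richest in lens RNA, was misplanned, since animal 1 had the smallest lens share, and it gave 2 members in C. Log2 fold changes that changed sign over all 12 animals were Fgf14 (-0.13), Fgfr1 (0.60) and Fgfr3 (6.77) in B and Fgf9 (-0.29), Fgfr1 (0.87), Fgfr2 (3.17) and Fgfr3 (3.82) in C. In C they were Fgf9 (-0.0094), Fgfr1 (0.13) and Fgfr2 (1.04) with the lens covariate, and Fgfr1 (0.17) and Fgfr2 (1.32) without animals 2, 3, 4 and 10. Fgfr3 in B was 0.031 by limma voom. Leaving out 1 animal gave ranges across 0 for Fgf1 (-0.024 to 0.077) and Fgfr3 (-0.28 to 0.44) in B and for Fgf9 (-0.047 to 0.12), Fgf14 (-0.12 to 0.021) and Fgfr1 (-0.20 to 0.014) in C. The causes were not tested. A count of 3 corresponds to 0.144 to 0.379 normalised CPM, which limits the precision of Fgfr3 near 1 normalised CPM.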
